A study of Mus musculus with 16 samples.

Results

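The change in brown fat gene expression between warm and cool housing was examined in mice that lack Akt2 in brown adipocytes. The comparison holds the 8 knockout (KO) libraries of a 16-library series, 4 from mice housed at 22 °C and 4 from mice housed at 30 °C, taken by the genotype and temperature in their titles. All mice were C57BL/6J, were kept at their temperature for 4 weeks between 9 and 13 weeks of age, and gave interscapular brown fat for bulk RNA sequencing. The knockout was made with UCP1-CreER, a tamoxifen-inducible Cre recombinase driven by the Ucp1 promoter. Whether and when tamoxifen was given, to knockout or control mice, is not stated in the sources used here. By this design deletion would be limited to cells that express Ucp1, and vessel, nerve, immune and stromal cells in the same tissue would keep Akt2. Deletion was not measured by cell type here. The other 8 libraries came from wild-type (WT) littermates at the same 2 temperatures, 4 per temperature, and serve only to test where the response of KO tissue differed from that of WT tissue. The labels number the libraries within each group and do not state whether 2 libraries could share an animal. The p-values describe variation among these libraries, which may be technical in part.

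Brown adipocytes burn fatty acids and glucose and release the energy as heat through uncoupling protein Ucp1 in the inner mitochondrial membrane. At thermoneutrality the drive to do so is low. In the cool, sympathetic nerves release noradrenaline, beta-adrenergic receptors raise cyclic AMP (cAMP), and protein kinase A frees fatty acids from lipid droplets and switches on thermogenic genes. Akt2 is the Akt kinase that carries much of the insulin signal in fat, including glucose uptake and the induction of lipid synthesis.

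Depth ranged from 12751528 to 17020621 counts in the 8 KO libraries, and 14103 genes passed the count filter. In a principal component analysis of the KO libraries the second component (29.9% of variance) separated the temperatures. The first (41.3%) placed 22 °C library 1 and 30 °C library 2 apart from the rest. These were also the KO libraries with the highest share of counts on 18 skeletal muscle markers, 0.8195% and 0.4978%. That share lay between 0.004876% and 0.1525% in the other 6 KO libraries, and no muscle marker was called. The log2 ratio of Dbp to Arntl, genes that peak at opposite phases of the circadian day, lay between -1.361 and 0.2615 in the 30 °C KO libraries. In the 22 °C KO libraries it lay between -3.431 and -2.196, with no overlap, while in WT the ranges overlapped (-0.5617 to 0.4024 at 30 °C, -0.7995 to 1.775 at 22 °C). The hour of collection is not given in the sources used here, so clock phase and temperature cannot be told apart in the KO libraries. In bulk tissue, fewer cells of a type and less RNA per cell cannot be told apart either.

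**Figure D1:**
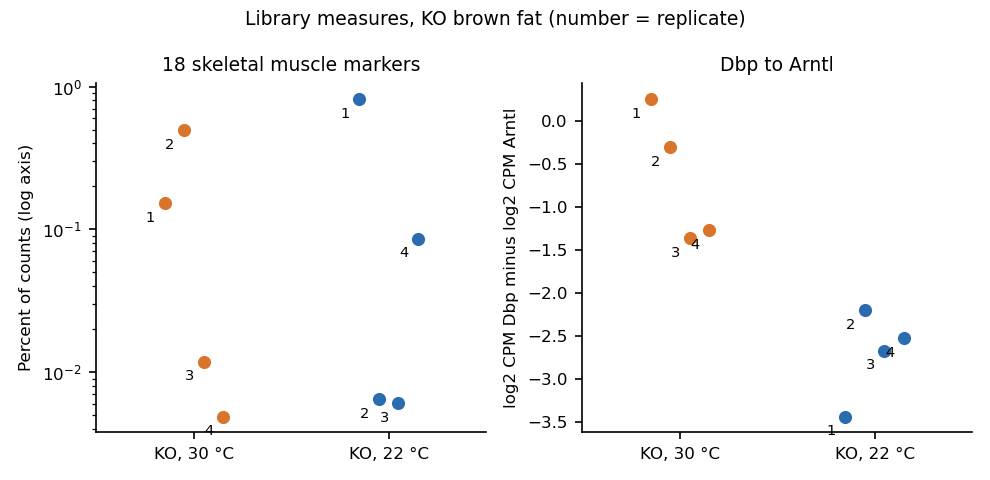
Measures of the 8 KO libraries by housing temperature: percent of counts on 18 skeletal muscle markers (left, log axis) and the log2 ratio of Dbp to Arntl CPM (right). Each point is 1 library, with its replicate number beside it. The muscle share was highest in 22 °C library 1 (0.8195%). The Dbp to Arntl values did not overlap between temperatures, and whether temperature itself set them was not tested.

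Akt2 itself was counted at 81, 66.2, 74.4 and 56.2 CPM at 30 °C and 76.3, 85, 89.3 and 78.2 CPM at 22 °C. The ranges overlapped and the difference was not called (log2 fold change 0.24 ± 0.10 (SE), adjusted p = 0.0913). Its counts come from all cells of the depot and from any part of the gene outside the deleted part, so they do not measure the extent of deletion. Akt1, the related kinase that could act beside it, read 139.8 ± 6.65 CPM at 30 °C and 142 ± 12.2 CPM at 22 °C (SD, n = 4), with a log2 fold change of 0.02 (adjusted p = 0.887). Ucp1 was counted at 1966, 1861, 1478 and 1837 CPM at 30 °C and 4275, 7868, 7762 and 8756 CPM at 22 °C, so every 22 °C library lay above every 30 °C library (log2 fold change 2.00 ± 0.25 (SE), adjusted p = 7.95e-05).

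Of 14103 genes tested, 1943 (13.8%) were higher and 1829 (13%) lower at 22 °C at an adjusted p under 0.05 (edgeR quasi-likelihood test, Benjamini-Hochberg). Gene lists below are read against these shares and against a median of 0.015 on the log2 scale over every gene tested. Upper-quartile scaling in place of TMM moved that median to -0.083 and the split to 1179 higher and 2540 lower. Groups of CPM values did not overlap for 1758 of the genes called higher and 1602 of those called lower. A call and a lack of overlap rest on the same values, so these counts are no separate support. The share without overlap over all genes tested is not given here. The change was at least 2-fold in 273 genes higher and 512 lower, and at least 8-fold in 14 and 23. A call is termed steady below when all 16 alternative fits that tested the gene (other scaling, filters and tools, KO libraries alone, a replicate block, and each KO library left out) made it in the same direction. By that measure 1022 higher and 1116 lower calls were steady. Without the libraries above 0.1% muscle markers, hereafter the muscle-rich libraries, which leaves 2 KO libraries at 30 °C and 3 at 22 °C, 776 genes were higher and 979 lower. With the Dbp to Arntl ratio as a covariate, hereafter the clock covariate, the counts were 1280 and 935.

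**Figure D2:**
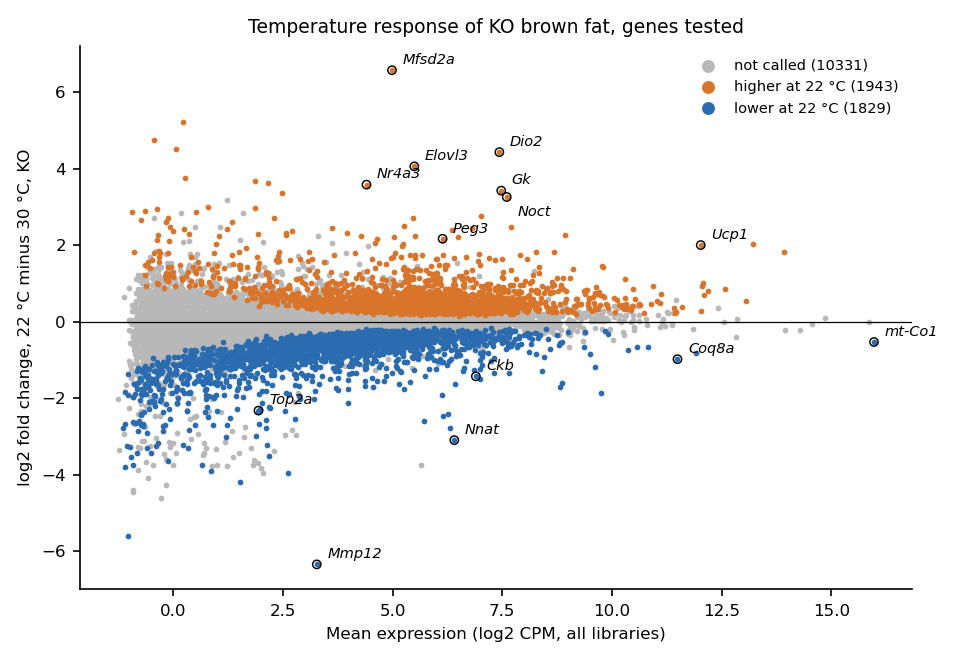
Log2 fold change (22 °C minus 30 °C, KO libraries) against mean expression (log2 CPM) for the 14103 genes tested, with genes called higher in orange, lower in blue and not called in grey. Labelled points are genes with steady calls, from Mfsd2a at 6.57 to Mmp12 at -6.34. Of these, Coq8a and mt-Co1 changed by less than 2-fold.

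Genes are ranked here among steady calls with a minimum mean expression and no overlap between temperatures, leaving out predicted genes, clones and pseudogenes. The highest fold change among them was that of Mfsd2a, a membrane transporter of lysophosphatidylcholine. It was counted at 0.706, 1.79, 0.604 and 0.327 CPM at 30 °C and 129, 85.4, 47 and 70.1 CPM at 22 °C, nearly absent from every warm library and present in every cool one (log2 fold change 6.57 ± 0.92 (SE), adjusted p = 0.000161). Dio2, the deiodinase that makes active thyroid hormone inside the cell, read 19.5, 21.9, 15.4 and 26.1 CPM at 30 °C and 379.9, 511, 373 and 530.3 CPM at 22 °C (log2 fold change 4.43 ± 0.44 (SE), adjusted p = 1.32e-05). Elovl3, a fatty acid elongase typical of active brown fat, read 2.19, 4.18, 1.89 and 6.7 CPM at 30 °C and 41.5, 101, 56.5 and 56.9 CPM at 22 °C (log2 fold change 4.06 ± 0.56 (SE), adjusted p = 0.000141). Nr4a3, Gk, Fndc5 and Noct also rose more than 8-fold and are given with their groups below. The lowest fold change among the calls so ranked was that of Mmp12, a macrophage elastase (log2 fold change -6.34 ± 0.66 (SE), adjusted p = 1.78e-05).

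Among receptors and enzymes of the cAMP pathway, 9 of 35 tested genes rose, 6 of them steadily, and 2 fell, with a median log2 fold change of 0.25. The counts were 5 and 1 with the clock covariate, at a median of 0.04, 6 and 3 with upper-quartile scaling and 7 and 1 without the muscle-rich libraries. The changes sat on both arms of the pathway. Adcy3, an adenylyl cyclase that makes cAMP, read 54.8, 68.9, 70.0 and 79.7 CPM at 30 °C and 128, 266, 243 and 302 CPM at 22 °C (log2 fold change 1.78 ± 0.23 (SE), adjusted p = 8.84e-05). Pde4d, a phosphodiesterase that breaks it down, read 63, 78.4, 83.7 and 55 CPM at 30 °C and 222, 215, 177 and 229 CPM at 22 °C (log2 fold change 1.59 ± 0.13 (SE), adjusted p = 3.54e-06). Neither gene's groups overlapped. Gnas, which encodes the stimulatory G protein subunit, rose (log2 fold change 0.76 ± 0.11 (SE), adjusted p = 0.000239), and Gnai2, which encodes an inhibitory one, fell (log2 fold change -0.54 ± 0.09 (SE), adjusted p = 0.000793). Adrb3, the main beta-adrenergic receptor of brown adipocytes, read 128, 166, 123 and 169.9 CPM at 30 °C and 296, 159.5, 241 and 205 CPM at 22 °C, with overlap. Its call (log2 fold change 0.62 ± 0.21 (SE), adjusted p = 0.0412) was lost when any of 6 KO libraries (30 °C libraries 1, 3 and 4, 22 °C libraries 1, 3 and 4) was left out, without the muscle-rich libraries, with upper-quartile scaling and with the clock covariate. In this list 1 gene fell in every fit with a KO library left out other than 22 °C library 1, where 4 fell. 

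Nr4a3, an orphan nuclear receptor induced by cAMP, was counted at 1.27, 7.59, 2.72 and 9.8 CPM at 30 °C and 73.6, 65.2, 42.8 and 80.2 CPM at 22 °C. The lowest cool library lay above 4 times the highest warm one, and the mean moved from 5.35 to 65.5 CPM (log2 fold change 3.58 ± 0.53 (SE), adjusted p = 0.000248). Noct, a circadian and nutrient-responsive phosphatase also known as nocturnin, read 39.7, 54.4, 37.8 and 71.4 CPM at 30 °C and 631, 478, 366 and 477 CPM at 22 °C, again with no overlap (log2 fold change 3.26 ± 0.28 (SE), adjusted p = 4.40e-06). Of 24 NR4A receptors and immediate early genes, 3 rose steadily, Nr4a3 and Sik1 among them, and none fell. Sik1, a kinase that restrains cAMP-responsive transcription, was 148, 135, 53.1 and 46.3 CPM in the cool libraries against 24.8, 30.3, 16.2 and 49.2 CPM in the warm ones. Its groups overlapped, and its call (log2 fold change 1.66 ± 0.41 (SE), adjusted p = 0.00792) was lost without the muscle-rich libraries and with the clock covariate. Without 22 °C library 1, 8 genes of the immediate early group were called lower, and 5 were called higher without 22 °C library 3 or 4. Without the muscle-rich libraries 1 was higher and 3 were lower, and with the clock covariate 1 was higher.

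Ppargc1a, the coactivator that drives mitochondrial biogenesis, read 27.4, 30.1, 47.3 and 31.2 CPM at 30 °C and 134, 149, 156 and 282 CPM at 22 °C (log2 fold change 2.41 ± 0.24 (SE), adjusted p = 1.20e-05). Irf4, a transcription factor of thermogenic adipocytes, read 13.8, 19.5, 11.7 and 13.9 CPM at 30 °C and 78.3, 48.3, 43 and 36.7 CPM at 22 °C (log2 fold change 1.80 ± 0.23 (SE), adjusted p = 9.36e-05). These were the steady calls among 26 thermogenic transcription factors and coactivators, of which 5 rose, 2 without 30 °C library 1 or the muscle-rich libraries and 3 without 30 °C library 3. None of that group fell with all libraries in the fit, and 1 did without 30 °C library 2 or 22 °C library 4, with upper-quartile scaling or with the muscle marker share as a covariate (the muscle covariate). Pparg and Prdm16, which define adipocyte and brown identity, had log2 fold changes of 0.02 and 0.24 and were not called. In the thyroid hormone group Dio2 was the steady call among 3 of 15 that rose. That count was 1 without 30 °C library 3, 30 °C library 4, 22 °C library 1 or the muscle-rich libraries. The receptor genes Thra and Thrb had log2 fold changes of 0.18 and 0.26, neither called.

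Promoters of 4 of these genes are shown because cAMP acts through a factor that binds the cAMP response element (CRE), TGACGTCA, or its shorter core TGACG. The sequences are RefSeq promoters on GRCm38.p6, from 250 bases before to 50 bases after the start site, read 5′ to 3′ along the gene, with matches to either form on either strand in capitals. The full element and the core overlap in the Dio2 promoter.
Dio2 chr12:90738989-90739288 (minus strand): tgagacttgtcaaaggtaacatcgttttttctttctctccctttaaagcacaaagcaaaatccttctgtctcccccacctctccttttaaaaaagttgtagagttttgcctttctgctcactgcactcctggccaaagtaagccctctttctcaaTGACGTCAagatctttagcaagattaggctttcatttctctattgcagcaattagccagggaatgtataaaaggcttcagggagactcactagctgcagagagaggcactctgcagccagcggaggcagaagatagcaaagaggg
Nr4a3 chr4:48045055-48045354 (plus strand): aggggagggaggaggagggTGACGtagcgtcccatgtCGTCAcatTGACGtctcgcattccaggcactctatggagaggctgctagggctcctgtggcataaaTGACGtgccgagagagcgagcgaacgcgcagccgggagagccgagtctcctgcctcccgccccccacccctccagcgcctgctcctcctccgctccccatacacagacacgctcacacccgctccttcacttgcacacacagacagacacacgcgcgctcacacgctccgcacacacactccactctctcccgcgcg
Ppargc1a chr5:51567676-51567975 (minus strand): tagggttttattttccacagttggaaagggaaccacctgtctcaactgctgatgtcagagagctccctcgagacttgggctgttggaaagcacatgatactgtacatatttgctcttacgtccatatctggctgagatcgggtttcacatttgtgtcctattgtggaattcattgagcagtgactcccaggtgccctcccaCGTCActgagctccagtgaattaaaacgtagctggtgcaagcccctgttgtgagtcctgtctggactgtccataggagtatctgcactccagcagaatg
Pck1 chr2:173152823-173153122 (plus strand): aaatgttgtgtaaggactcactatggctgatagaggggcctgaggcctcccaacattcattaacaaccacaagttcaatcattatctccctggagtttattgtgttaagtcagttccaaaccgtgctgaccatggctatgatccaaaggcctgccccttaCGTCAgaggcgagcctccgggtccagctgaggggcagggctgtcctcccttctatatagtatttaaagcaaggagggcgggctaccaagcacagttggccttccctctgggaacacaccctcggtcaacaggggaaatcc
In the Dio2 promoter the full element began 95 bases before the start site. Nr4a3 carried the core 4 times, at 231, 213, 205 and 147 bases before the start, and no full element. Ppargc1a carried it once, at 49 bases, and Pck1, the gluconeogenic and glyceroneogenic enzyme whose RNA also rose (log2 fold change 0.70 ± 0.13 (SE), adjusted p = 0.00162), once at 90 bases. Among 10699 tested genes with a promoter in the table, 3.18% held the full element and 31.1% the core, so a core match is common and none of these is shown to be a working site. Only 190 of the 270 genes with a symbol called at least 2-fold higher (70.4%) had a promoter in the table. For those called at least 2-fold lower it was 376 of 507 (74.2%). That coverage was judged too low to compare shares, so no excess of either form among the genes that rose is shown. The 4 promoters printed do not stand for those genes. The NR4A site AAAGGTCA, the E-box CACGTG, the ISRE core and the D-box core TTANGTAA were also searched and stood in 0.897%, 10.1%, 3.04% and 1.31% of the promoters of tested genes.

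Many thermogenic effectors rose with Ucp1. Of 22 thermogenic and brown adipocyte genes, 11 rose (9 steadily) and 2 fell (1 steadily), with a median of 0.53. Gk, glycerol kinase, which lets brown adipocytes reuse glycerol, was counted at 35.1, 44.2, 39.9 and 40.3 CPM at 30 °C and 328, 431, 453 and 504 CPM at 22 °C (log2 fold change 3.43 ± 0.31 (SE), adjusted p = 8.19e-06). Aspg, an asparaginase, read 30.9, 27.6, 33.7 and 15.5 CPM at 30 °C and 116, 217, 189 and 209 CPM at 22 °C (log2 fold change 2.77 ± 0.28 (SE), adjusted p = 1.32e-05). The genes that fell were Ckb, named below, and Lhx8, whose call was not steady and was lost without the muscle-rich libraries and with the clock covariate. Among 41 inner-membrane carriers of the SLC25 family, 15 rose (13 steadily) and 5 fell (3 steadily). The counts were 10 and 2 without the muscle-rich libraries and 12 and 1 with the clock covariate. Slc25a34, a carrier with a poorly known substrate, read 12.3, 15.5, 18 and 20.6 CPM at 30 °C and 84.2, 75.7, 109.8 and 104 CPM at 22 °C (log2 fold change 2.49 ± 0.42 (SE), adjusted p = 0.000672). Slc25a3, the phosphate carrier, and Slc25a20, which brings acylcarnitine into the matrix, had log2 fold changes of 0.78 and 0.80 (adjusted p = 6.24e-05 and 0.000184). Ucp2, a relative of Ucp1 that is common in immune cells, moved the other way, at 187, 151, 159 and 169.9 CPM at 30 °C and 72.5, 76.3, 88.2 and 90.0 CPM at 22 °C (log2 fold change -1.03 ± 0.09 (SE), adjusted p = 3.77e-06).

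Creatine cycling, which can dissipate energy beside Ucp1, had no gene called higher among 7 tested and 2 called lower. Ckb, the brain-type creatine kinase of brown adipocytes, was counted at 222, 218, 272 and 159 CPM at 30 °C and 80.9, 78.3, 72.8 and 92 CPM at 22 °C, and every cool library lay below every warm one (log2 fold change -1.43 ± 0.21 (SE), adjusted p = 0.000228). Slc6a8, the creatine transporter, read 61, 76.9, 80.9 and 65.6 CPM at 30 °C and 59, 35.3, 36 and 34.1 CPM at 22 °C (log2 fold change -0.79 ± 0.18 (SE), adjusted p = 0.00492). Leaving out 22 °C library 3 added 1 call higher, and leaving out 22 °C library 1 added 1 lower. Both genes were also called lower with the clock covariate and without the muscle-rich libraries.

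**Figure D3:**
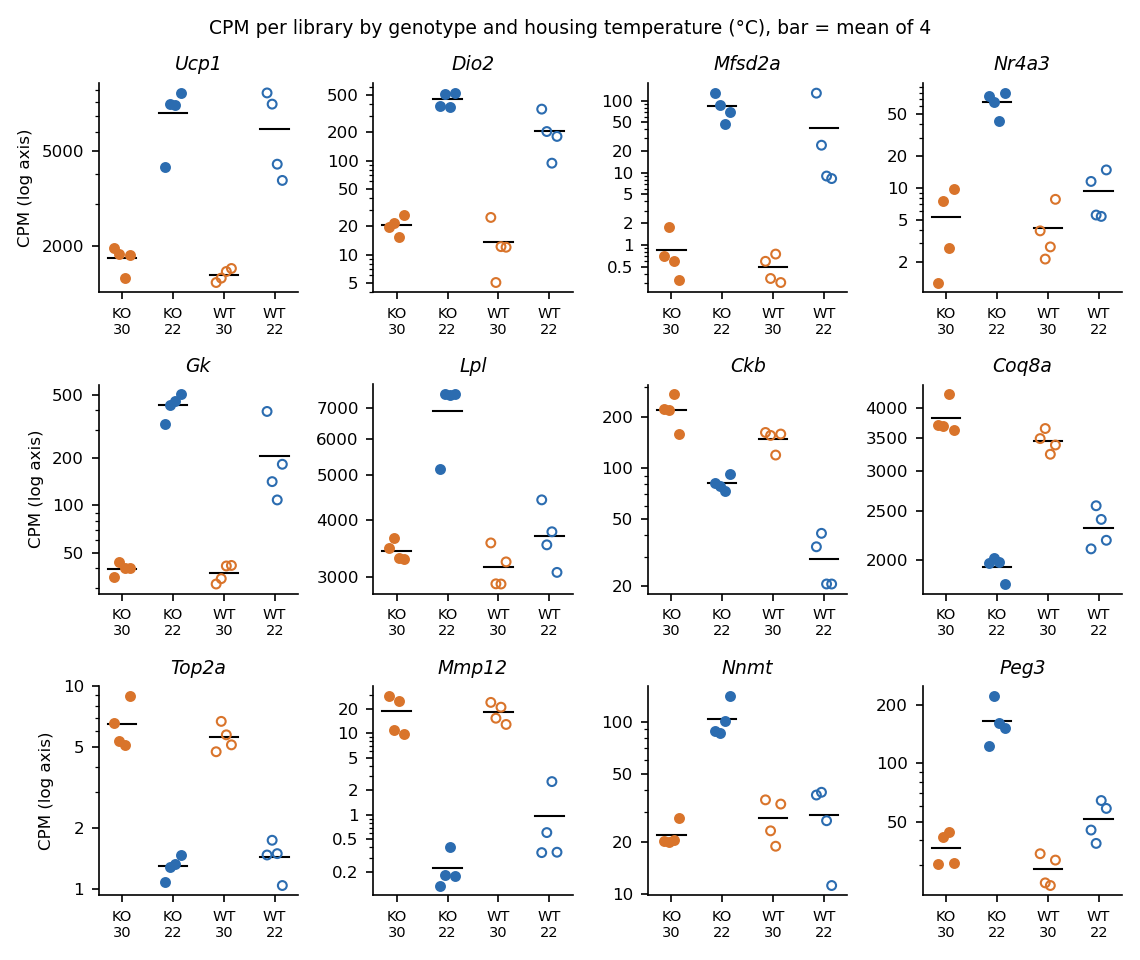
CPM of 12 genes in each library (log axis), with KO libraries at 30 °C and 22 °C as filled points, WT libraries as open points, and horizontal bars at the group means (n = 4 each). The 12 genes were picked with their values known, so the lack of overlap between 30 °C and 22 °C in KO for each of them is no separate support. Nnmt and Peg3 moved less between temperatures in WT than in KO.

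Genes of fat supply moved both ways. Lpl, the lipase that frees fatty acids from circulating lipoproteins, was counted at 3476, 3645, 3297 and 3288 CPM at 30 °C and 5162, 7506, 7466 and 7515 CPM at 22 °C (log2 fold change 1.01 ± 0.13 (SE), adjusted p = 7.78e-05). Its rise in KO was larger than that in WT (WT 0.23, interaction 0.78 ± 0.18, adjusted p = 0.0309). That difference was not called without any KO library other than 30 °C library 2 and 22 °C library 1, nor without any WT library at 30 °C. Gpihbp1, the endothelial protein that anchors that lipase in capillaries, moved the other way (log2 fold change -0.74 ± 0.14 (SE), adjusted p = 0.00111), a call lost with the clock covariate. Of 19 genes for lipoprotein lipase and uptake, 7 rose (5 steadily) and 3 fell, all steadily. Upper-quartile scaling gave 5 higher and 6 lower, the clock covariate 5 and 1, and the fit without the muscle-rich libraries 3 and 2. Cd36, the main fatty acid transporter, had a log2 fold change of -0.01 and was not called.

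In the droplet and lipolysis group, 7 of 20 rose (6 steadily) and 3 fell (1 steadily, 1 without the muscle-rich libraries, none with the clock covariate, 5 with upper-quartile scaling). Abhd5, the activator of triglyceride lipase, was counted at 55.8, 85, 52.8 and 60.6 CPM at 30 °C and 156, 133, 143 and 151 CPM at 22 °C (log2 fold change 1.20 ± 0.17 (SE), adjusted p = 0.00018). Bscl2, the seipin that shapes droplets, read 146, 125, 125 and 141 CPM at 30 °C and 229, 267, 271 and 287 CPM at 22 °C (log2 fold change 0.97 ± 0.13 (SE), adjusted p = 0.000133). Plin2, a droplet coat protein, read 262, 279.7, 227 and 339.8 CPM at 30 °C and 1092, 528, 631 and 621 CPM at 22 °C, with the highest value in 22 °C library 1 (log2 fold change 1.37 ± 0.21 (SE), adjusted p = 0.000379). The lipase genes themselves, Pnpla2 and Lipe, had log2 fold changes of -0.20 and -0.01, neither called. Mgll, which completes lipolysis, rose (log2 fold change 0.73 ± 0.13 (SE), adjusted p = 0.000776).

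Fatty acid oxidation had 16 of 26 genes higher (10 steadily) and none lower, with a median of 0.39 and 10 higher without 22 °C library 2 or 4 or with upper-quartile scaling and 9 without the muscle-rich libraries. Acaa1b, a peroxisomal thiolase, read 9.21 ± 3.42 CPM at 30 °C and 38.4 ± 3.95 CPM at 22 °C (SD, n = 4), with no overlap (log2 fold change 2.07 ± 0.25 (SE), adjusted p = 6.13e-05). Cpt2, which completes carnitine-dependent entry into mitochondria, read 292, 274, 274 and 310.1 CPM at 30 °C and 425, 573, 536 and 636 CPM at 22 °C (log2 fold change 0.92 ± 0.13 (SE), adjusted p = 0.000155). Ppara, the nuclear receptor that controls many of these genes, was not called (-0.11). Acyl-CoA synthetases and thioesterases showed 12 of 20 higher (10 steadily) and 1 lower, a call (Acsm5) that was not steady and was lost with the clock covariate. Acsl1 rose by 0.74, Acsl3 by 0.97 and Acsl5 by 1.43 on the log2 scale (adjusted p = 0.000297, 0.000162 and 0.000234).

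Triglyceride assembly had 10 of 18 genes higher (8 steadily) and a median of 0.58. The 1 gene lower, Aqp7, was not called without 30 °C library 3 or 4 or 22 °C library 1 or 4, without the muscle-rich libraries or with the clock covariate, and 2 were lower with upper-quartile scaling. Dgat1, which adds the last acyl chain, was counted at 206, 174, 177 and 258 CPM at 30 °C and 359, 425, 437 and 482 CPM at 22 °C (log2 fold change 1.06 ± 0.13 (SE), adjusted p = 7.42e-05). Agpat2, an acyltransferase earlier in the path, read 406, 312, 320.5 and 361 CPM at 30 °C and 626, 1013, 1021 and 1107 CPM at 22 °C (log2 fold change 1.43 ± 0.21 (SE), adjusted p = 0.000205). Mogat1, a minor route to diacylglycerol, reached 7.85 ± 1.92 CPM from 1.5 ± 0.633 CPM (log2 fold change 2.37 ± 0.31 (SE), adjusted p = 9.36e-05).

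Some genes of de novo lipid synthesis rose in KO, and some had a larger response in WT. Of 28 genes of fatty acid synthesis, elongation and desaturation, 13 rose (12 steadily), and 1 fell (0 to 2 without 1 KO library, 3 with upper-quartile scaling, 2 with the muscle or the clock covariate), with a median of 0.64 in KO and 1.29 in WT. For 11 of the 28 the response in KO was smaller than in WT by the interaction term, and for none larger. Over all genes 0.752% had a positive and 2.39% a negative interaction, that is, a KO response above or below the WT response. Elovl6, the elongase that makes stearate, showed a log2 fold change of 2.28 in KO and 3.40 in WT (interaction -1.13 ± 0.24, adjusted p = 0.0241), a difference not called without KO 30 °C library 1 or WT 30 °C library 1 or 4. Slc25a1, the carrier that exports citrate for lipid synthesis, rose by 1.14 in KO and 2.97 in WT (interaction -1.83 ± 0.18, adjusted p = 8.27e-05). Thrsp, a lipogenic nuclear protein, was counted at 1674, 1091, 1347 and 1488 CPM at 30 °C and 1314, 1548, 1638 and 1412 CPM at 22 °C, with overlap and no call (log2 fold change 0.08 ± 0.15 (SE), adjusted p = 0.737), while WT rose by 2.01 (interaction adjusted p = 0.000276).

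Genes of the sterol branch went both ways in KO. Of 26 cholesterol synthesis genes 5 rose and 2 fell in KO, with a median of 0.07 against 0.74 in WT, and 9 had a negative interaction. Without the muscle-rich libraries 2 rose and 1 fell. Fdft1, squalene synthase, fell in KO (not called with the clock covariate), at 72.6, 60.6, 62.9 and 48.4 CPM at 30 °C and 43.8, 35.6, 33.4 and 21 CPM at 22 °C (log2 fold change -0.87 ± 0.18 (SE), adjusted p = 0.00227), and had a positive fold change in WT (0.58, interaction -1.45 ± 0.25, adjusted p = 0.0057). Nsdhl, a later sterol enzyme, rose from 15.3 ± 1.5 to 22.4 ± 0.714 CPM, by 0.56 in KO against 2.19 in WT (interaction adjusted p = 5.74e-05). The interaction counts in these lists come with the limits given for all interactions below.

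Some genes of glucose use also had smaller responses in KO than in WT. Of 29 genes of glucose uptake and glycolysis, 7 rose (3 steadily, 3 and 4 without 30 °C libraries 3 and 4, 2 without the muscle-rich libraries and 3 with the clock covariate) and 1 fell, while 9 had a smaller response in KO than in WT. Ldha, lactate dehydrogenase, was counted at 504, 440.4, 425 and 422 CPM at 30 °C and 945, 813, 775 and 814 CPM at 22 °C (log2 fold change 0.90 ± 0.12 (SE), adjusted p = 0.000138; WT 1.62). Aldoc, a brain-type aldolase, was the gene that fell, at 6.92, 5.8, 8.15 and 6.16 CPM at 30 °C and 2.04, 1.53, 1.00 and 0.95 CPM at 22 °C (log2 fold change -2.29 ± 0.30 (SE), adjusted p = 0.000116), and 2 genes fell without 22 °C library 1 or with upper-quartile scaling. Slc2a4, the insulin-regulated glucose transporter, had a log2 fold change of -0.09 in KO and 0.73 in WT (interaction adjusted p = 0.00539). In the pentose phosphate pathway, which supplies NADPH for lipid synthesis, 4 of 9 rose, all steadily (2 without the muscle-rich libraries), and 4 had a negative interaction. Pgd rose by 0.88 in KO and 2.69 in WT (interaction -1.80 ± 0.24, adjusted p = 0.000955). Glycogen genes had 6 negative interactions among 23, with 3 genes higher and 2 lower in KO (0 to 5 lower without 1 KO library, 1 without the muscle-rich libraries, none with the clock covariate). Gys2, the glycogen synthase otherwise known from liver, read 57, 41.4, 33.5 and 32.8 CPM at 30 °C and 77.1, 113, 101 and 75.2 CPM at 22 °C (log2 fold change 1.15 ± 0.22 (SE), adjusted p = 0.00171). Pygl, liver-type glycogen phosphorylase, was not called in KO (0.19, adjusted p = 0.259) and rose by 2.15 in WT (interaction adjusted p = 3.45e-05).

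Pyruvate entry and the citric acid cycle had 14 of 29 genes higher (10 steadily, 9 without the muscle-rich libraries), 1 lower (Idh2, a call lost in each of the 8 fits without a KO library, without the muscle-rich libraries and with either covariate) and 12 with a negative interaction. Mpc1 and Mpc2, the subunits of the mitochondrial pyruvate carrier, read 42.9 ± 1.06 CPM at 30 °C and 77.3 ± 5.08 CPM at 22 °C (SD, n = 4) and 235 ± 17.7 CPM at 30 °C and 455 ± 43.1 CPM at 22 °C (SD, n = 4). Their log2 fold changes were 0.85 and 0.95 in KO and 1.71 and 1.90 in WT (interaction adjusted p = 0.0012 and 0.0228). The difference in Mpc2 was not called without KO 30 °C library 1, 3 or 4, KO 22 °C library 3 or any WT library at 30 °C. Catabolism of branched-chain amino acids had 12 of 23 genes higher (7 steadily, 7 without 22 °C library 2 or 4 or with upper-quartile scaling, 6 without the muscle-rich libraries) and 1 lower, steadily (2 with upper-quartile scaling, none with the clock covariate), with 2 negative interactions. Mccc1 and Mccc2, the subunits of methylcrotonyl-CoA carboxylase, rose together, by 0.79 and 0.83 (adjusted p = 0.000234 and 0.00017).

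**Figure D4:**
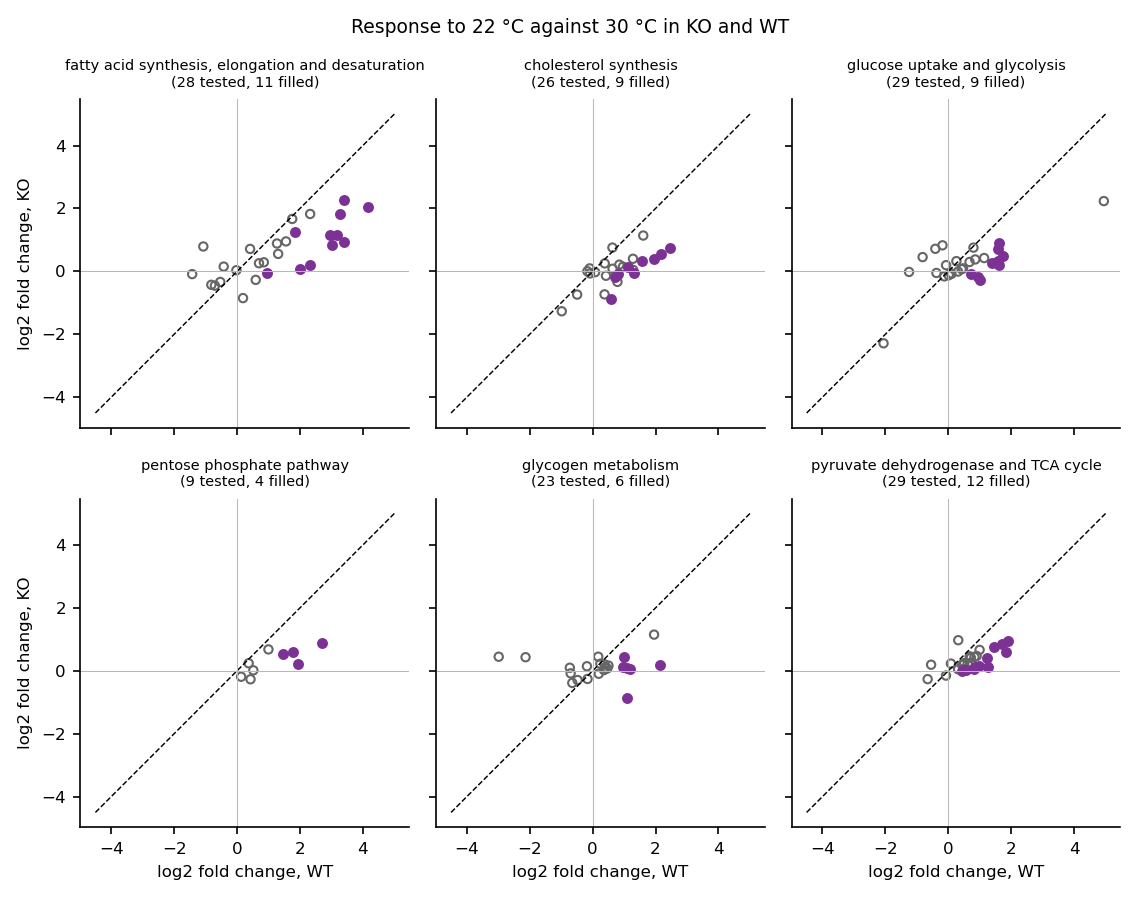
Log2 fold change at 22 °C against 30 °C in WT (x axis) and KO (y axis) for the tested members of 6 metabolic lists, 1 panel each, with the line of equal response dashed and genes with a called interaction filled. The 2 axes share no library, and each filled point in these panels lies below the line, where the KO response is the smaller.

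Many genes that build mitochondria rose, by small amounts. Of 75 mitochondrial ribosomal protein genes, 40 rose and 1 fell, with a median of 0.28. Only 15 of the calls were steady, and the count was 21, 25 and 17 without 30 °C libraries 2, 3 and 4, and 17, 24 and 17 without 22 °C libraries 2, 3 and 4. Mrpl20, a protein of the large subunit, read 47.1, 42, 38.6 and 44.8 CPM at 30 °C and 73.5, 91.3, 85.1 and 84.4 CPM at 22 °C (log2 fold change 0.96 ± 0.15 (SE), adjusted p = 0.000303). The gene that fell, Mrps6, was not called in 7 of the 8 fits that left out a KO library, without the muscle-rich libraries or with the clock covariate. Protein import genes behaved alike, with 20 of 35 higher (11 steadily, 11 or 12 without 30 °C library 4 or 22 °C library 2 or 4) and none lower (1 without 22 °C library 1 or with upper-quartile scaling). Grpel1, which drives the import motor, and Hspe1, the small matrix chaperonin, rose by 0.74 and 0.71 (adjusted p = 0.00122 and 0.000687).

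Of the respiratory chain genes encoded in the nucleus, complex I and its assembly factors had 13 of 48 genes higher and none lower (5 steadily, and 8, 7, 6 and 5 without 30 °C libraries 2 and 4 and 22 °C libraries 2 and 4). Complexes II to V had 20 of 43 higher and 1 lower (2 without 30 °C library 2 or with upper-quartile scaling, none without the muscle-rich libraries or with the clock covariate), with 8 higher steadily and between 8 and 12 without 30 °C library 2, 3 or 4 or 22 °C library 2, 3 or 4. By the interaction term the response in KO was smaller than in WT for 5 of the 48 and 5 of the 43, and larger for none. The medians of these lists were 0.22 and 0.28 in KO and 0.69 and 0.72 in WT. Uqcrfs1, the iron-sulfur subunit of complex III, read 802, 727, 779.7 and 807 CPM at 30 °C and 1069, 1298, 1175 and 1288 CPM at 22 °C (log2 fold change 0.63 ± 0.12 (SE), adjusted p = 0.00121), and Ndufab1 of complex I rose by 0.61 (adjusted p = 0.000365). Mitochondrial ribosome, import, complex I and complex II to V lists had 7, 5, 3 and 4 genes higher without the muscle-rich libraries, 17, 11, 7 and 8 with upper-quartile scaling, and 51, 20, 28 and 32 with the clock covariate. No gene encoded by the mitochondrial genome rose among 8 tested in any of these fits, and 2 fell (3 without 30 °C library 4, 4 with upper-quartile scaling, 1 without the muscle-rich libraries). mt-Co1, which made up several percent of all counts, read 79744, 85236, 87320 and 75213 CPM at 30 °C and 65000, 55631, 55304 and 51108 CPM at 22 °C (log2 fold change -0.53 ± 0.12 (SE), adjusted p = 0.00608), a call lost without the muscle-rich libraries. mt-Nd3 was also called lower (log2 fold change -2.30 ± 0.29 (SE), adjusted p = 7.42e-05) but stood at only 5.57 and 1.13 CPM. Nuclear copies of mitochondrial genes can share their reads, so the value is uncertain. Only 8 of the 13 genes in this list passed the count filter, and 1 had no counts in any KO library. The list still held 21% to 27.4% of counts in the KO libraries, so values of its other genes are uncertain too.

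Of 21 genes of coenzyme Q and cardiolipin synthesis, 13 rose (8 steadily, 8 without 22 °C library 4, 7 without the muscle-rich libraries) and 1 fell (2 with upper-quartile scaling). Coq10b, a coenzyme Q chaperone, read 19.6, 22.8, 15.3 and 24.9 CPM at 30 °C and 64, 62.2, 63.4 and 76.4 CPM at 22 °C (log2 fold change 1.68 ± 0.20 (SE), adjusted p = 5.39e-05). Coq8a, the atypical kinase that supports coenzyme Q synthesis, was the gene that fell, at 3709, 3695, 4274 and 3624 CPM at 30 °C and 1973, 2024, 1981 and 1794 CPM at 22 °C, with no overlap (log2 fold change -0.98 ± 0.08 (SE), adjusted p = 2.85e-06). In the NAD group 6 of 17 rose (3 steadily, 3 with upper-quartile scaling) and 2 fell (1 without 30 °C library 4 or 22 °C library 3). Nnmt, which methylates nicotinamide, was counted at 20.3, 20.1, 20.6 and 27.5 CPM at 30 °C and 88.8, 86.1, 100.4 and 142 CPM at 22 °C (log2 fold change 2.23 ± 0.31 (SE), adjusted p = 0.000165). The WT log2 fold change was 0.05, and the responses differed (interaction 2.19 ± 0.43, adjusted p = 0.0157). Nmnat3, a mitochondrial enzyme of NAD synthesis, fell (log2 fold change -1.01 ± 0.17 (SE), adjusted p = 0.000766).

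Genes of protein synthesis and quality control moved in part. Of 37 aminoacyl-tRNA synthetases, 13 rose (10 steadily, 7 without the muscle-rich libraries) and 1 fell (Dars), with 4 lower with upper-quartile scaling. The largest rise in the list was that of Cars2, the mitochondrial cysteinyl-tRNA synthetase, at 18.2, 16.1, 17 and 17.3 CPM at 30 °C and 53, 73, 65.3 and 78.7 CPM at 22 °C (log2 fold change 1.98 ± 0.13 (SE), adjusted p = 5.60e-07). Iars2, its counterpart for isoleucine, rose by 0.59 (adjusted p = 0.000113). Cytosolic ribosomal proteins showed 3 of 80 higher and 2 lower, none of them steady, with a median of -0.02. Leaving out 1 KO library gave 0 to 3 higher and 0 to 4 lower there, upper-quartile scaling 1 and 9, the clock covariate 4 and 0, and the fit without the muscle-rich libraries none either way. Many of these genes share reads with processed pseudogenes. Proteasome subunits had 12 of 39 higher but 3 steadily, between 4 and 7 without 30 °C library 2 or 4 or any 22 °C library, 3 with upper-quartile scaling and 2 without the muscle-rich libraries, and 1 lower, not steadily (0 to 2 in these fits). The endoplasmic reticulum list had 9 of 30 higher and 2 lower, but 4 and 7 with upper-quartile scaling, 3 and 1 without the muscle-rich libraries, 5 higher without 30 °C library 3 or 22 °C library 4 or with the clock covariate, and 1 lower without 30 °C library 2 or 3 or 22 °C library 3 and 4 lower without 22 °C library 1. Dnajb9, a chaperone of the endoplasmic reticulum, read 21.8, 24.3, 20.6 and 28.5 CPM at 30 °C and 59.9, 45.4, 47.3 and 40.9 CPM at 22 °C (log2 fold change 1.02 ± 0.12 (SE), adjusted p = 3.70e-05). Derl3, a factor for disposal of misfolded proteins, was called lower (log2 fold change -2.61 ± 0.40 (SE), adjusted p = 0.000295) from a low level (0.528 CPM). In the ATF4 pathway 8 of 28 rose and 4 fell (7 and 7 with upper-quartile scaling, 2 and 2 with the clock covariate, 4 and 3 without the muscle-rich libraries). Of its serine enzymes Psph was higher (log2 fold change 0.71 ± 0.13 (SE), adjusted p = 0.00126) and Shmt1, which uses serine, lower (log2 fold change -0.53 ± 0.09 (SE), adjusted p = 0.000427). Of 33 lysosome and autophagy genes 7 rose and 4 fell (4 and 3 without the muscle-rich libraries). Ctsz, a cathepsin, rose from 158, 165, 165 and 156 CPM to 315, 409, 319 and 356 CPM (log2 fold change 1.12 ± 0.17 (SE), adjusted p = 0.000303). Of 37 antioxidant genes 10 rose, 2 of them steadily, and 3 fell. Leaving out 1 KO library gave 2 to 6 higher and 2 to 5 lower, upper-quartile scaling 2 and 9, and the fit without the muscle-rich libraries 2 and 3. Sod3, the extracellular superoxide dismutase, read 175, 146, 149 and 184 CPM at 30 °C and 297, 319.7, 356 and 399.5 CPM at 22 °C (log2 fold change 1.07 ± 0.13 (SE), adjusted p = 6.00e-05), and Gpx3, the secreted glutathione peroxidase, read 4057, 4834, 6304 and 5463 CPM at 30 °C and 3257, 2774, 2621 and 3177 CPM at 22 °C (log2 fold change -0.80 ± 0.16 (SE), adjusted p = 0.00214).

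**Figure D5:**
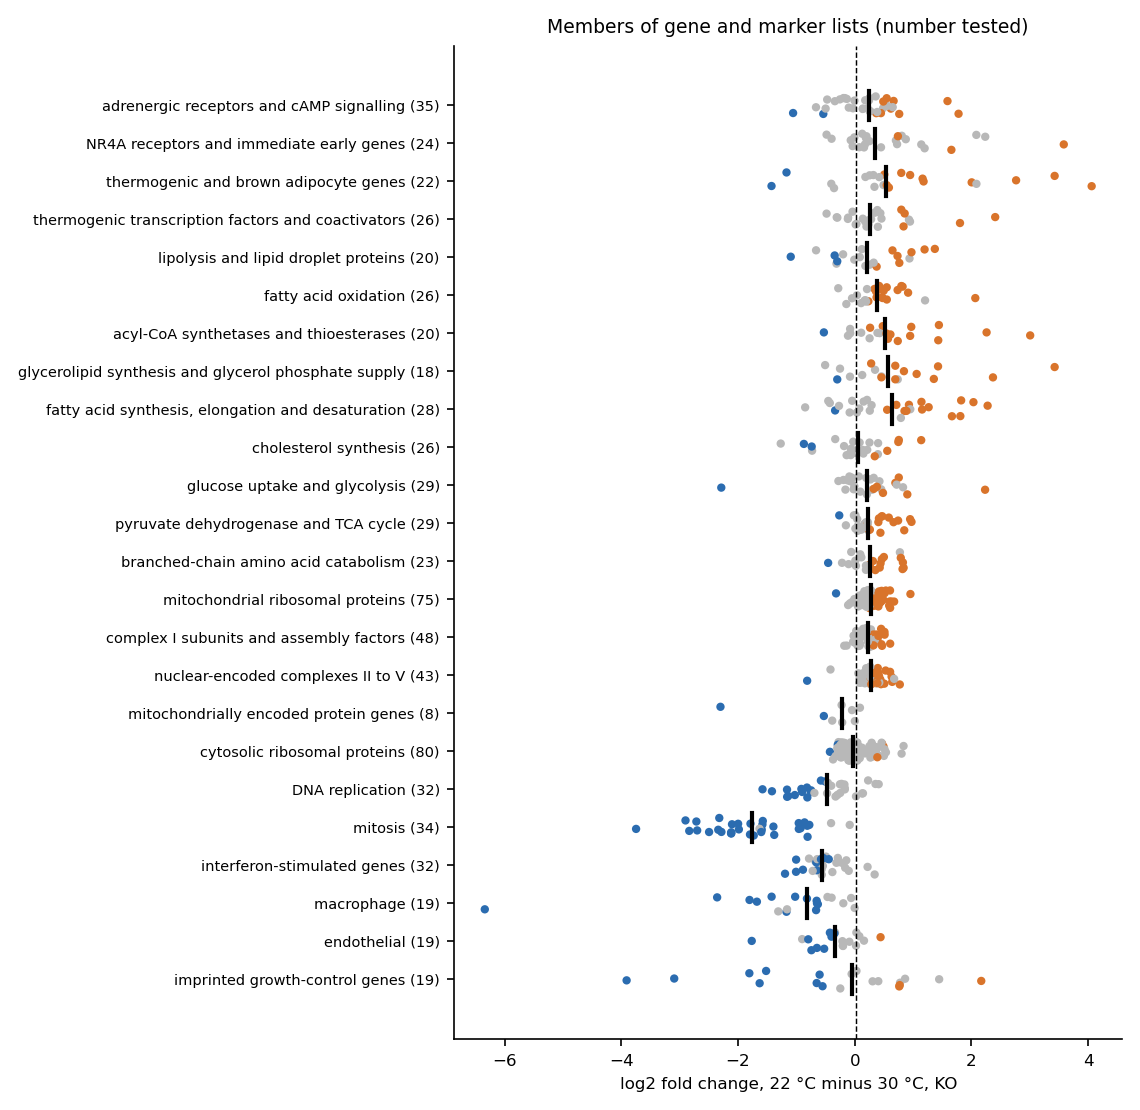
Log2 fold change (22 °C minus 30 °C, KO libraries) of the tested members of 24 gene and marker lists, with each point 1 gene, called genes in colour (orange higher, blue lower), the median as a black bar and the median of all 14103 genes as a dashed line. Mitosis (median -1.76) and macrophage markers (median -0.82) lie to the left, and glycerolipid synthesis (median 0.58) and fatty acid synthesis (median 0.64) to the right.

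Mitosis genes and some replication genes were lower in cool-housed KO tissue. Of 34 mitosis genes tested, 31 fell (29 steadily) and none rose, with a median log2 fold change of -1.76 (-1.19 in WT). Top2a, the topoisomerase that untangles chromosomes, was counted at 6.57, 5.38, 5.13 and 8.99 CPM at 30 °C and 1.09, 1.29, 1.34 and 1.48 CPM at 22 °C (log2 fold change -2.32 ± 0.22 (SE), adjusted p = 8.61e-06). Kif11, the motor that builds the spindle, read 3.25, 2.21, 3.1 and 2.83 CPM at 30 °C and 0.885, 1.1, 0.869 and 0.891 CPM at 22 °C (log2 fold change -1.59 ± 0.20 (SE), adjusted p = 7.07e-05), and Tpx2, a spindle assembly factor, read 4.03, 2.57, 2.11 and 3.16 CPM at 30 °C and 0.272, 0.612, 0.468 and 0.713 CPM at 22 °C (log2 fold change -2.50 ± 0.36 (SE), adjusted p = 0.000189). None of the 3 overlapped between temperatures, though all lay under 10 CPM. DNA replication had 14 of 32 genes lower (12 steadily) and none higher, at a median of -0.47. Rrm2, the ribonucleotide reductase subunit that is made in S phase, fell (log2 fold change -1.58 ± 0.25 (SE), adjusted p = 0.000415), as did the replicative helicase subunits Mcm5 and Mcm6 (-1.16 and -1.03, adjusted p = 0.000953 and 0.000382). Mcm5 was not called with the clock covariate. With that covariate 15 mitosis and 8 replication genes were called lower, and without the muscle-rich libraries 24 and 9.

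Promoters of 2 mitosis genes are shown because this group fell together and such promoters are known to share 2 elements, the CCAAT box and the cell cycle homology region (CHR, TTTGAA). Capitals mark matches to CCAAT or TTTGAA on either strand.
Top2a chr11:99024140-99024439 (minus strand): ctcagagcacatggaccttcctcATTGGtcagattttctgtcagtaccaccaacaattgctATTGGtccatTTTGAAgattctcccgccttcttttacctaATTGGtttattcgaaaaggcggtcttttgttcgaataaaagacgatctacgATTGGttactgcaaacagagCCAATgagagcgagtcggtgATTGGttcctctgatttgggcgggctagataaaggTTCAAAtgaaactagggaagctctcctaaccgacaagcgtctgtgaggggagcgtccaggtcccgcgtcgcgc
Kif11 chr19:37376132-37376431 (plus strand): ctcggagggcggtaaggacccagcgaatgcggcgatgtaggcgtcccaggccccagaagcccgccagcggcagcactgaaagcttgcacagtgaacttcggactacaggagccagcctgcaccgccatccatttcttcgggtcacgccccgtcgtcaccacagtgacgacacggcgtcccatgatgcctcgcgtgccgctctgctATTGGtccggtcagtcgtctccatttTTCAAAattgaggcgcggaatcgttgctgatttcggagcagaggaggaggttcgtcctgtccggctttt
Top2a held 6 CCAAT boxes and 2 CHR matches, the nearest CHR beginning 23 bases before the start site. Kif11 held 1 of each, at 45 and 19 bases before the start. Of the 31 mitosis genes called lower, 26 (83.9%) had a promoter in the table, taking the entry listed ahead of others where a gene had several. Among them 80.8% held a CCAAT box, 76.9% a CHR match and 73.1% both. The same shares were 38.3%, 11.7% and 4.93% over the 10699 tested genes with a promoter. These are descriptions of letters in windows of 300 bases.

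Many macrophage markers fell. Of 19 tested, 12 were lower (10 steadily) and none higher, with a median of -0.82 (-0.82 in WT), and their summed share of counts was 0.0331% to 0.0414% at 30 °C and 0.0165% to 0.0216% at 22 °C. Mmp12 was counted at 29.2, 11, 24.8 and 9.91 CPM at 30 °C and 0.136, 0.184, 0.401 and 0.178 CPM at 22 °C, with the highest cool value far below the lowest warm one. Trem2, a lipid-sensing receptor of macrophages in fat, read 2.9, 2.09, 2.49 and 2.18 CPM at 30 °C and 0.885, 0.306, 0.201 and 0.475 CPM at 22 °C (log2 fold change -2.36 ± 0.38 (SE), adjusted p = 0.000497). Cd68, a lysosomal marker of the lineage, read 10.5, 8.73, 10.8 and 8.66 CPM at 30 °C and 6.13, 4.1, 3.67 and 3.27 CPM at 22 °C (log2 fold change -1.17 ± 0.22 (SE), adjusted p = 0.00156). Cd163 and Mrc1, markers of resident tissue macrophages, had log2 fold changes of -0.20 and -0.47 and were not called. With the clock covariate 4 macrophage markers were called lower, and without the muscle-rich libraries 10. Interferon-stimulated genes had 9 of 32 lower and none higher at a median of -0.55. That count was 5 without 30 °C library 1 or 22 °C library 3, 1 with the clock covariate and 0 without the muscle-rich libraries (13 with upper-quartile scaling). No lymphocyte marker was called among 17 (median -0.62), and 1 was without 22 °C library 3 or the muscle-rich libraries.

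Among endothelial markers 8 of 19 fell (7 steadily, 4 with the clock covariate) and 1 rose, a call that was not steady and was lost with upper-quartile scaling, without the muscle-rich libraries and with the clock covariate. The marker share was 0.224% to 0.261% of counts at 30 °C and 0.155% to 0.19% at 22 °C, without overlap. Tie1, a vascular receptor, read 189, 204, 216 and 202 CPM at 30 °C and 143, 158, 155 and 148 CPM at 22 °C (log2 fold change -0.43 ± 0.08 (SE), adjusted p = 0.000979), and Esam, a junction protein, fell by a like amount (log2 fold change -0.52 ± 0.10 (SE), adjusted p = 0.00135), a call lost with the clock covariate. Pecam1 and Kdr, which also define the lineage, were not called (-0.20 and -0.20). Cd34, found on preadipocytes and endothelium, read 79.3, 69.5, 87.9 and 88 CPM at 30 °C and 47.6, 40.0, 42.5 and 42.5 CPM at 22 °C (log2 fold change -0.91 ± 0.12 (SE), adjusted p = 8.39e-05) and was the fibroblast and preadipocyte marker called among 15. Of 26 matrix genes 2 rose and 6 fell, while 3 fell without 30 °C library 2 or 22 °C library 2, 2 with the clock covariate and 1 without the muscle-rich libraries. Loxl1, a collagen and elastin cross-linking enzyme, read 13.4, 12.7, 11.6 and 13.7 CPM at 30 °C and 37, 39.7, 39.3 and 44.3 CPM at 22 °C (log2 fold change 1.64 ± 0.18 (SE), adjusted p = 2.52e-05), and Mmp14, a membrane protease that cuts collagen, read 22.3, 17.7, 25.7 and 23.4 CPM at 30 °C and 13.1, 11.4, 13.6 and 15.5 CPM at 22 °C (log2 fold change -0.73 ± 0.13 (SE), adjusted p = 0.00105). S100b, a calcium-binding protein of Schwann cells that brown adipocytes also release, rose (log2 fold change 1.02 ± 0.21 (SE), adjusted p = 0.00226), while Sox10, a transcription factor that marks Schwann cells, was not called (0.47).

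Genes of the pathway in which Akt2 acts changed in part. Of 41 insulin and PI3K signalling genes, 9 rose (5 steadily) and 3 fell, all steadily. Upper-quartile scaling gave 5 and 5, the fit without the muscle-rich libraries 3 and 2, and the clock covariate 2 and 1. Insr, the insulin receptor, was counted at 89.6, 107, 90.7 and 89.7 CPM at 30 °C and 128, 138, 142 and 145 CPM at 22 °C (log2 fold change 0.55 ± 0.10 (SE), adjusted p = 0.000821). Pik3ip1, an inhibitor of PI3 kinase, read 21.5, 18.9, 21.2 and 7.52 CPM at 30 °C and 6.06, 5.51, 5.48 and 3.62 CPM at 22 °C (log2 fold change -1.74 ± 0.37 (SE), adjusted p = 0.00297), a call lost without the muscle-rich libraries and with the clock covariate. Foxo1, the transcription factor that Akt holds out of the nucleus, read 84.6, 89.1, 96 and 80.2 CPM at 30 °C and 138, 131, 173 and 224 CPM at 22 °C (log2 fold change 0.93 ± 0.16 (SE), adjusted p = 0.00062), with a like value in WT (1.08). The list of FOXO factors and their typical targets did not move 1 way. Of 23 tested, 3 were higher, Foxo1 itself among them (5 without 30 °C library 2), and 6 lower (1 with the clock covariate, 2 without the muscle-rich libraries). Pck1 was higher and Gadd45a lower (log2 fold change -1.20 ± 0.28 (SE), adjusted p = 0.00638). Sgk2, a kinase related to Akt, rose in KO, at 6.57, 10.6, 10.9 and 11.1 CPM at 30 °C and 27.9, 23.7, 17.6 and 19.5 CPM at 22 °C (log2 fold change 1.18 ± 0.30 (SE), adjusted p = 0.0104), and had the opposite sign in WT (-2.19, interaction 3.37 ± 0.47, adjusted p = 0.0012). Its KO call was lost without the muscle-rich libraries and with the clock covariate.

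Of 17 core clock genes 2 rose (1 without 30 °C library 1, 3 or 4 or 22 °C library 1 or 2, without the muscle-rich libraries or with upper-quartile scaling) and 4 fell. Dbp, a clock output factor, read 22.9, 15.9, 9.74 and 9.8 CPM at 30 °C and 3.06, 5.45, 4.14 and 4.51 CPM at 22 °C (log2 fold change -1.76 ± 0.35 (SE), adjusted p = 0.00209), against 0.47 in WT (interaction adjusted p = 0.0239, not called without KO 30 °C library 1, KO 22 °C library 3 or WT 30 °C library 1, 3 or 4). Clock, a positive regulator, rose (log2 fold change 0.59 ± 0.13 (SE), adjusted p = 0.00366), and Cry2 and Bhlhe41, repressors, fell (-0.73 and -1.07, adjusted p = 0.00123 and 0.00202). Arntl, the partner of Clock, had a log2 fold change of 0.37 and was not called (adjusted p = 0.0925). Without the muscle-rich libraries the calls for Dbp and Clock were lost. With the clock covariate no core clock gene was called higher and 1 lower, and the calls for Clock, Cry2 and Bhlhe41 were lost. That covariate is computed from Dbp and Arntl themselves, so it is no test of these 2 genes.

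Imprinted growth-control genes gave both large rises and large falls. Of 19 tested, 3 rose and 8 fell, all steadily, and no fit with a KO library left out changed these counts. The clock covariate gave 2 higher and 6 lower, and the fit without the muscle-rich libraries 3 and 7. Ndn, a paternally expressed growth suppressor, was counted at 146, 115, 136 and 129 CPM at 30 °C and 36.6, 41.9, 48.2 and 43.6 CPM at 22 °C (log2 fold change -1.63 ± 0.12 (SE), adjusted p = 7.18e-07). Mest, which marks expanding adipocytes, read 6.99, 5.56, 7.25 and 5.99 CPM at 30 °C and 2.52, 1.29, 1.54 and 2.02 CPM at 22 °C (log2 fold change -1.81 ± 0.21 (SE), adjusted p = 3.61e-05). Nnat, which lies inside another gene, read 92.9, 65.2, 95 and 166 CPM at 30 °C and 25.5, 6.55, 11.8 and 5.46 CPM at 22 °C (log2 fold change -3.09 ± 0.57 (SE), adjusted p = 0.00114). Peg3 went the other way, at 30.2, 41.7, 44.3 and 30.6 CPM at 30 °C and 123, 223, 161 and 153 CPM at 22 °C (log2 fold change 2.17 ± 0.21 (SE), adjusted p = 1.05e-05), and rose more than in WT (0.87, interaction 1.30 ± 0.29, adjusted p = 0.027), a difference not called without KO 30 °C library 1 or 4, KO 22 °C library 2 or 3, or WT 30 °C library 1 or 4. Among secreted factors Lep, leptin, fell from 76.9, 63.8, 38.3 and 50.5 CPM to 22.9, 3.12, 6.08 and 6.23 CPM, with the highest cool value in library 1 (log2 fold change -2.59 ± 0.57 (SE), adjusted p = 0.0042). Fndc5, the precursor of irisin, read 1.27, 2.87, 0.831 and 0.817 CPM at 30 °C and 12.7, 15.1, 11 and 21.9 CPM at 22 °C (log2 fold change 3.37 ± 0.56 (SE), adjusted p = 0.000551), and Igfbp3, a carrier of insulin-like growth factors, read 62.9, 60.9, 59.7 and 33.3 CPM at 30 °C and 22.7, 20.4, 21.2 and 23.8 CPM at 22 °C (log2 fold change -1.30 ± 0.16 (SE), adjusted p = 6.00e-05). Nnat, Lep and Mest are also markers of white adipocytes, of which 3 of 8 fell (4 without 22 °C library 1) and 1 rose (0 to 2 without 1 KO library, none without the muscle-rich libraries or with the clock covariate). The share of counts on that marker list was 0.0184% to 0.0303% at 30 °C and 0.00832% to 0.0235% at 22 °C, and its part in these values was not tested. Adipoq, common to all adipocytes, was at 0.05 and not called.

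Across all genes the temperature response of KO tissue was above that of WT for 106 genes (0.752%) and below it for 337 (2.39%). Of the 1943 genes higher in cool KO tissue, 1286 were higher in WT by the same test and 8 lower, and of the 1829 lower in KO, 1119 were lower in WT and 26 higher. The share of all tested genes called in WT is not given here. These counts therefore have no baseline and are not read as a measure of agreement between genotypes. Interactions were ranked only among genes with a symbol that were also called in KO or stood in a list. Among the positive ones so ranked the smallest p belonged to Kctd12, an auxiliary subunit of GABA-B receptors. Its fall was smaller in KO (-0.68, against -1.64 in WT, interaction adjusted p = 0.000571). Smad3, the transcription factor of the transforming growth factor pathway, was counted at 24, 32.3, 33.7 and 27.1 CPM at 30 °C and 98.3, 56.9, 53.3 and 79.9 CPM at 22 °C (log2 fold change 1.30 ± 0.20 (SE), adjusted p = 0.000283), against -0.38 in WT (interaction 1.68 ± 0.28, adjusted p = 0.00451). At the negative end Pnpla3, a lipogenic lipase of droplets, read 293, 235, 260.0 and 199 CPM at 30 °C and 215, 191, 172 and 216 CPM at 22 °C and was not called in KO (-0.31), while WT rose by 1.66 (interaction -1.98 ± 0.16, adjusted p = 3.45e-05). Phlda3, a p53 target that competes with Akt for membrane lipids, fell in KO, at 399, 297, 416 and 346 CPM at 30 °C and 203, 184, 178 and 207 CPM at 22 °C (log2 fold change -0.92 ± 0.14 (SE), adjusted p = 0.00026), and had a positive value in WT (0.51, interaction adjusted p = 0.000955).

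Interaction counts moved by more than 1.5 times when single libraries were left out. They were 24 to 70 positive and 123 to 262 negative without any KO library other than 22 °C library 1, and 27 to 45 and 132 to 178 without any WT library at 30 °C. Leaving out WT 22 °C library 4, which had the lowest Dbp to Arntl value in its group, raised them to 367 and 718. Leaving out each other WT library at 22 °C gave 99 to 122 and 298 to 378. Without the muscle-rich libraries, which here also drops WT 30 °C libraries 2 and 4, 0 positive and 15 negative calls were made, and with the clock covariate 3 and 26. Among the genes named here with a called interaction, Nsdhl, Pnpla3, Pygl, Slc25a1 and Thrsp were called in every one of these fits.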

How the data were processed

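Interscapular brown fat in 16 libraries, 4 per genotype and temperature, was profiled by bulk RNA sequencing. The authors deposited unnormalised counts of reads for each Ensembl ID and library. FastQC 0.10.1, STAR 2.4.2a and edgeR 3.14.0 are named in the submitters' processing notes with no role. The program, annotation and strand setting used by the authors for these counts are not given in the sources used, so overlapping, antisense and near-identical genes are uncertain. The 38924 Ensembl IDs were named from GENCODE M21, and the 1317 without a symbol held at most 0.131% of counts in any library.

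All 16 libraries entered 1 edgeR 4.0.16 quasi-likelihood model in R 4.3.3 with a mean per genotype and temperature, TMM factors and the default filter (minimum count 10), which kept 14103 genes. Contrasts were KO 22 °C minus 30 °C and that difference minus the WT difference, with Benjamini-Hochberg adjustment over all genes and a threshold of 0.05. Levels are CPM on TMM-scaled library sizes and are not per length, so they do not compare genes. Precision is set by 4 libraries per group and 12751528 to 17020621 counts per KO library (up to 23866743 in WT). On simulated counts for the KO contrast, the fit called 17 of 100 genes given a 1.5-fold change, 70 of 100 given a 2-fold change and 4 of 13903 left unchanged. Far fewer genes were changed in the simulation than were called in the data. That makes the Benjamini-Hochberg threshold stricter, so these shares are not recovery rates for the data. Alternatives were other factors and filters, DESeq2 1.42.0, limma-voom (limma 3.58.1), KO libraries alone, a replicate block, each library left out, skeletal muscle (covariate or libraries left out) and a Dbp to Arntl covariate.

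The members and lists were chosen with earlier results of these data known. From each list the text names up to 4 steady members with the smallest p, or the leading member where none was steady. It adds Akt2, Akt1 and Ucp1, the 12 largest steady changes each way, the 6 leading interactions each way, and members given for their role. The 6 were ranked among genes with a symbol that were also called in KO or stood in a list. The 12 were limited to genes with a minimum mean expression and no overlap between the KO groups, and predicted genes, clones and pseudogenes were left out. Lack of overlap in these genes was therefore a condition of their choice. Acsm5, Aqp7, Idh2, Lhx8 and Mrps6 were named after their values were seen. A few genes that this rule names are not reported here. Promoters came from a RefSeq table on GRCm38.p6, which has 27025 genes.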

Additional observations from a re-analysis of the deposited data

Results flagged for a closer look

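For 2 groups of 4 KO libraries, each named gene and 4 library measures were checked for a value far from the other 3, and 24 of 268 checks (8.96%) found one, where chance gives about 1 in 20. The library concerned was 22 °C library 1 in 9 of them. It was lowest for Kdr (123 CPM), Lpl (5162 CPM), Ppara (101 CPM), Psph (21.8 CPM) and Slc25a20 (506 CPM) and highest for Lep (22.9 CPM), Slc6a8 (59 CPM), mt-Nd3 (1.63 CPM) and the muscle marker share (0.8195%). Among the other libraries at 22 °C, library 4 was highest for Coq10b (76.4 CPM) and Ppargc1a (282 CPM) and lowest for Idh2 (599 CPM). Library 3 was highest for Derl3 (0.134 CPM), and library 2 was highest for Kif11 (1.1 CPM) and lowest for Nmnat3 (8.81 CPM). At 30 °C library 4 was highest for Aqp7 (341.8 CPM) and Nnmt (27.5 CPM) and lowest for Igfbp3 (33.3 CPM) and mt-Nd3 (2.94 CPM). Library 1 was highest for Psph (19.8 CPM) and Slc25a1 (160.1 CPM) and lowest for Sgk2 (6.57 CPM). Library 2 was highest for Insr (107 CPM) and library 3 for Coq8a (4274 CPM).

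The temperature response of 22 named genes differed between KO and WT by the edgeR interaction term, given here as KO minus WT on the log2 scale. It was positive for Sgk2 (3.37), Nnmt (2.19), Smad3 (1.68), Peg3 (1.30), Kctd12 (0.96) and Lpl (0.78). It was negative for Dbp (-2.22), Acsl5 (-1.99), Pnpla3 (-1.98), Pygl (-1.96), Thrsp (-1.94), Slc25a1 (-1.83), Pgd (-1.80), Nsdhl (-1.63), Fdft1 (-1.45), Phlda3 (-1.43), Elovl6 (-1.13), Mpc2 (-0.96), Mpc1 (-0.86), Slc2a4 (-0.82), Ldha (-0.72) and Lipe (-0.53). The calls for Ldha, Lipe, Lpl, Mpc2, Peg3, Elovl6 and Dbp were lost in at least 1 fit that left out a single library.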

How the results depend on the processing

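No direction of a named called gene reversed in any alternative. Most named genes were chosen because they were steady, so their counts in the fits that define that term were largely set in advance. The muscle and clock fits had no part in that choice. Over all genes, 1022 of 1943 higher and 1116 of 1829 lower calls were steady. Of 109 named genes called in KO, 109 were called with DESeq2, 109 with limma-voom, 108 with relative-log-expression or upper-quartile factors, 105 with the replicate block, and 103 to 106 with 1 KO library left out. Without the muscle-rich libraries 98 were called and with the clock covariate 92. Genes called higher numbered 1943 and ranged from 1341 to 1821 with 1 KO library left out, and genes called lower numbered 1829 and ranged from 1373 to 2017. The counts moved by more than 1.5 times in few other fits. Upper-quartile factors gave 1179 higher, limma-voom 3079 higher and 2988 lower, the fit without the muscle-rich libraries 776 and 979, and the clock covariate 1280 and 935. The cause was not tested, other than that the fit without the muscle-rich libraries has fewer libraries.

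Interaction counts, 106 positive and 337 negative, moved more. They were 44 and 192 with no filter, 322 and 754 with DESeq2, 372 and 678 with limma-voom, 70 positive with the muscle covariate, and 3 and 26 with the clock covariate. Without the muscle-rich libraries they were 0 and 15 (edgeR; 691 and 907 at an unadjusted p under 0.05, of 14345 tested). Leaving out 1 library gave 24 to 367 positive and 123 to 718 negative. The fits that left out a WT library were added after seeing the data. With the replicate block they were 41 and 145, and the KO counts 1703 and 1703. The labels do not state that replicate numbers pair these libraries, so the counts with the block are given here only. The correlation of same-numbered KO libraries in their deviations from the group means was 0.293, -0.503, 0.452 and -0.159. Values this few and of mixed sign cannot decide whether the libraries were paired. Most simulated 1.5-fold changes were not called at the depth, number of libraries and spread of this comparison. The simulation also held far fewer changed genes than were called in the data, and the parts of these conditions were not separated.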

Other observations

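Genes that handle iron and heme, which mitochondria need for the respiratory chain, moved in part. Of 27 tested, 8 rose (5 steadily) and 2 fell, with a median log2 fold change of 0.14, but upper-quartile scaling gave 5 higher and 7 lower, and the fit without the libraries above 0.1% muscle markers 5 and 0. Of 19 genes of mitochondrial dynamics and mitophagy, 4 rose and none fell, 1 was higher without the libraries above 0.1% muscle markers, and 9 were higher with the Dbp to Arntl covariate. Cytosolic heat shock proteins had 2 of 23 higher and 1 lower, with 5 lower without 22 °C library 1. Negative cell cycle regulators and p53 targets had 3 of 22 higher and 5 lower. No higher call in that list was steady, and 1 to 2 were higher and 3 to 8 lower without 1 KO library, and none was higher without the libraries above 0.1% muscle markers or with the Dbp to Arntl covariate.

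Among 14 smooth muscle and pericyte markers 4 rose and 2 fell, with 2 to 6 higher without 1 KO library and 1 and 1 without the libraries above 0.1% muscle markers. Antigen presentation genes had 2 of 16 lower, none steadily, and 1 to 5 without 1 KO library, 5 with upper-quartile scaling, and 0 without the libraries above 0.1% muscle markers or with the Dbp to Arntl covariate. Of the skeletal muscle, erythroid, epithelial and lymphatic markers none was called with all libraries, and 1 of 7 neutrophil and mast cell markers was lower (none without the libraries above 0.1% muscle markers).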
